A study of Mus musculus with 2 samples.

Results

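The interleukin 1 and interleukin 18 system was followed through the cells of the mouse optic nerve by way of 10 genes, taken by symbol from the 32285 genes of the deposited matrices. They are the ligands Il1a, Il1b and Il18, the antagonist Il1rn, the processing genes Nlrp3 and Casp1, the receptor chains Il1r1, Il1rap and Il18r1, and the decoy receptor Il1r2. All 10 were found, and after filtering they held from 304 UMIs (Il1r1) to 42736 UMIs (Il1b) over both libraries. A UMI is a molecular tag that counts 1 captured transcript.

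The nerves came from Nf1-OPG mice (Nf1flox/neo; GFAP-Cre), in which 1 Nf1 allele is disrupted by a neomycin cassette in the whole animal and the other is removed by GFAP-Cre in neuroglial progenitors, a model of optic pathway glioma. For each library, 10 mice were pooled at an age of 12 weeks, with live cells sorted by exclusion of 7-AAD after removal of debris and myelin. Mice of the first library received an antibody against PD-1 and mice of the second an antibody against TIGIT, both inhibitory receptors of lymphocytes. Both libraries are from Nf1-OPG mice, an untreated library was not analysed here, and with 1 library per treatment every difference is between these libraries and carries no test.

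Interleukin 1 alpha and interleukin 1 beta bind the same receptor chain, encoded by Il1r1, which signals only together with the accessory chain encoded by Il1rap; the product of Il1rn occupies the receptor without signalling, and the product of Il1r2 binds the ligands without a signalling domain. Interleukin 1 beta and interleukin 18 are made as inactive precursors that caspase-1 cuts after it is recruited to an inflammasome such as the one formed by NLRP3. Interleukin 18 acts on cells that carry Il18r1 and Il18rap, mainly T and NK cells, and is held back by the secreted binding protein encoded by Il18bp. Transcript counts say nothing of cutting or release.

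After filtering, 13275 anti-PD-1 and 7495 anti-TIGIT cells remained of 21912 barcodes, with median depths of 4453 and 4126 UMIs, and 163 barcode sequences occurred in both libraries. Cells were assigned to types by gates of 8 marker genes each, which placed 77.0% and 82.2% of them. Levels are given as CPM, the UMIs of a gene scaled to 1000000 UMIs of the gate, in the order anti-PD-1 then anti-TIGIT, and 95% intervals cover counting error only. A member is called at least 2-fold higher or lower between libraries on the scale of log2(CPM + 5), where it had at least 10 UMIs over both. The comparison covers the 14 gates that reached 50 cells in both. Markers of each gate led its own profile, except that immunoglobulin variable segments led the plasma cell gate and T cell subset genes led the conventional CD4, regulatory and ungrouped T cell gates. The small astrocyte gate had 1 own marker among its leading genes. An endocrine gate of 27 and 53 cells was led by Chga, Cga, Avp and Pomc, hormone and granule genes that are not optic nerve markers, and the protocol also speaks of meningeal dura without saying whether any entered these libraries.

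The start regions of 4 members are shown because they belong to the genes whose transcripts lay in different cells: Il1a and Il1b in myeloid cells, Il18 and Il1rap in oligodendrocytes. Each is the 250 bases before the RefSeq start (GRCm38.p6), written 5′ to 3′ on the strand of the gene. Capitals mark, on either strand, the TATA box TATAAA, the PU.1-type motif GAGGAA and the GC box GGGCGG.
Il1a, chr2:129309973-129310222, minus strand: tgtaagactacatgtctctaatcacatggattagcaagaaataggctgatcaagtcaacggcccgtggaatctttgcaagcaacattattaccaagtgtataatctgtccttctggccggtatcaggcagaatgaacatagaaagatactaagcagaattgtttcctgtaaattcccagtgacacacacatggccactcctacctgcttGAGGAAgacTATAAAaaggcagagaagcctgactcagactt
Il1b, chr2:129371140-129371389, minus strand: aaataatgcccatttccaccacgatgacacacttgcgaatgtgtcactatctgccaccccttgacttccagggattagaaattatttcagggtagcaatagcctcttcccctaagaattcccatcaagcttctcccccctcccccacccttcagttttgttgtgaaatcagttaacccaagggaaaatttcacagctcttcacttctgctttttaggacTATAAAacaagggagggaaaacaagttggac
Il18, chr9:50554450-50554699, plus strand: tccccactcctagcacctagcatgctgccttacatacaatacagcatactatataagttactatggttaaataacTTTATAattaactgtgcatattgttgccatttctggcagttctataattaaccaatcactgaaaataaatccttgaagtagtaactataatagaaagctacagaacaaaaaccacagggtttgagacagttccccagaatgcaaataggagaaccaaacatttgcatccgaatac
Il1rap, chr16:26581455-26581704, plus strand: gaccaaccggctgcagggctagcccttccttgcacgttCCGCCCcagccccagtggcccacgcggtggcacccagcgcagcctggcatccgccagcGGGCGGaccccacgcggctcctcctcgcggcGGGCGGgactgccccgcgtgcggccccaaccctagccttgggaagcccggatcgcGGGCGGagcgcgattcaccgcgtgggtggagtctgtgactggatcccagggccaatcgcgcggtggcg

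Il1a and Il1b both held TATAAA on the gene's own strand close to the start, at 32 to 27 and at 31 to 26 bases before it. Of 32851 windows of the same length in the RefSeq table, 12.4% held TATAAA on either strand. Il1a also held GAGGAA, at 41 to 36 bases, a motif present in 23.3% of windows, and so did windows of Nlrp3 (3 times), Casp1 and the lymphocyte gene Il18r1. The Il18 window held TATAAA only on the opposite strand, 175 to 170 bases before a start that lies 127 bases from that of the GENCODE annotation. The Il1rap window held 4 GC boxes, found in 32.7% of windows, and 74.4% of its bases were G or C. An NF-kB-type motif, GGGA and CC separated by 4 bases of any kind, was present in 17.6% of windows and was matched in a window of Il1rn, Nlrp3 and Il1rap. These matches describe letters and not occupied sites.

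Il1b and Il1a lie next to each other on chromosome 2, at 129364570 to 129371139 and 129299610 to 129309972 (GRCm38, both on the minus strand), with Il1rn on the same chromosome at 24336853 to 24351494. Il1r2, Il1r1 and Il18r1 lie in a row on chromosome 1, at 40074079 to 40125231, 40225080 to 40317257 and 40465552 to 40500854. Il18 (50554827 to 50581840) and Casp1 (5298517 to 5307265) are on chromosome 9, Nlrp3 (59541568 to 59566956) on chromosome 11 and Il1rap (26581704 to 26730117) on chromosome 16. Whether the counting used strand is not given in the sources used here, so reads of a member and of an overlapping gene on the other strand may not be separable. The partners in the matrices held fewer UMIs than the member in every case, from 1.26% of those of Il1rap (Gm20319) to 13.5% of those of Il1r2 (Gm16894), with 9.13% for Il1a (Gm14023), 2.23% for Il1b (Il1bos), and 5.48% (Bco2) and 1.40% (Tex12) for Il18.

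**Figure D1:**
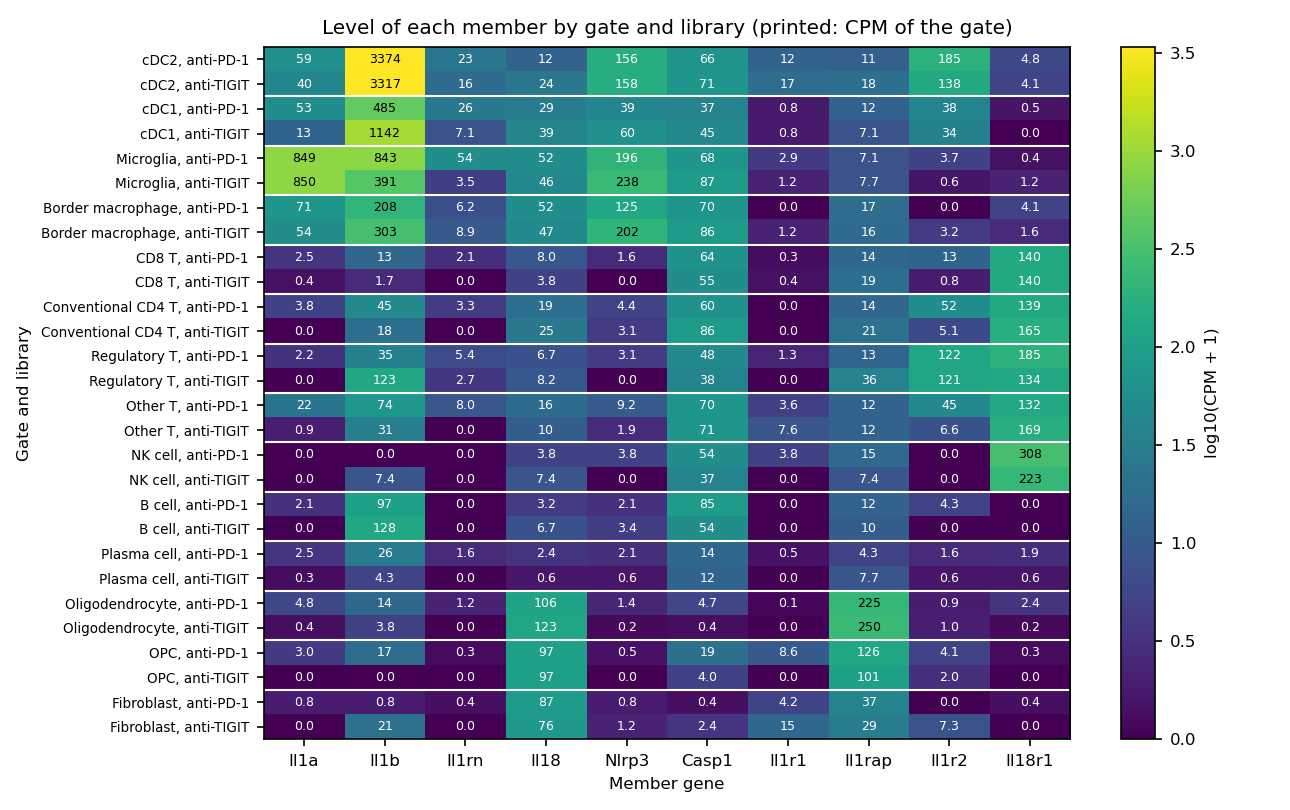
Level of the 10 members (columns) in the 14 compared gates of both libraries (rows), printed as CPM of the gate and coloured by log10(CPM + 1). Il1b is highest in cDC2, at 3374 and 3317 CPM, Il1a in microglia, Il18 and Il1rap in oligodendrocytes and their precursors (OPC), and Il18r1 in T and NK cells.

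Il1b, the inducible ligand, had the most UMIs of the members, and type 2 dendritic cells (cDC2) held the highest level of all gates. The cDC2 level was 3374 CPM (3295 to 3453) in the anti-PD-1 library and 3317 CPM (3249 to 3387) in the anti-TIGIT library, a log2 ratio of 0.02. An Il1b UMI was seen in 84.2% and 84.5% of cDC2 cells, and in 72.6% and 73.0% after each cell was thinned to 1000 UMIs. The small monocyte gate (58 and 44 cells) followed at 2209 and 1756 CPM, and migratory dendritic cells (115 and 42 cells) stood at 814 and 2006 CPM. When cells were clustered, 96 of the 115 anti-PD-1 migratory dendritic cells lay in cluster 30, led by Il12b and Ccr7. They held only 347 CPM (295 to 406), and 11.3% of the 115 lay in cluster 28, which counted as cDC1. The 42 neutrophils of the anti-TIGIT library held 1722 CPM, while the anti-PD-1 library had 7. These 3 gates are under 50 cells in a library and were described after their values were seen. In B cells Il1b stood at 96.7 and 128 CPM, but 1 cell held 54.4% and 44.7% of those UMIs, against 0.0 and 7.45 CPM in NK cells.

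The cells that held the Il1b transcripts differed between the libraries. In the anti-PD-1 library microglia held 41.3% of the Il1b UMIs of gated cells and cDC2 36.9%. In the anti-TIGIT library cDC2 held 68.3% and microglia 5.08%. These shares combine the level per cell with the number of cells recovered, 278 and 446 cDC2 against 1350 and 434 microglia, and after a sort and myelin removal cell numbers need not reflect the tissue. Assigned by clusters in place of gates, cDC2 held 9.20% and 45.6%. Cluster 28, which counted as cDC1, held 58.3% of anti-PD-1 and 20.4% of anti-TIGIT cDC2-gated cells, and clusters also take in cells that the gates left unassigned.

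Within microglia, Il1b was higher in the anti-PD-1 library, at 843 CPM (824 to 861) against 391 CPM (362 to 422). The log2 ratio was 1.11 (0.99 to 1.22), and relative to the median gene of the gate, which stood at -0.17, it was 1.27. Cells with an Il1b UMI made up 27.9% and 15.6% of microglia at equal depth of 1000 UMIs, and the gate's median depths were 6324 and 3766.5 UMIs. Il1b and Il1rn were the 2 of 9 measured members past 2-fold in this gate, against 1.17% of its genes higher and 1.94% lower. The higher Il1b level was also found among Xist-positive cells alone (log2 ratio 1.25) and among cells with Y-linked UMIs alone (1.34).

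The microglia gate was made of different clusters in the libraries, and the Il1b ratio within a cluster was smaller than in the whole gate. Cluster 0, led by Hcar2, Il1a and Cxcl13, held 61.6% of the anti-PD-1 gate and 15.4% of the anti-TIGIT gate. Cluster 14, led by the homeostatic microglia genes P2ry12, Gpr34 and Siglech, held 58.5% of the anti-TIGIT gate and 145 of the 1350 anti-PD-1 cells. In cluster 0 Il1b stood at 995 and 737 CPM, a log2 ratio of 0.43 (0.26 to 0.61). In cluster 14 it stood at 188 and 216 CPM, a log2 ratio of -0.20 with an interval of -0.53 to 0.12. In cluster 25, which mixes microglia with border macrophages and other myeloid cells, it stood at 730 and 678 CPM (0.11, -0.18 to 0.40). The clusters were formed with Il1b, Il1a and Il1rn among the genes used, so their contrast in these genes is a description.

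**Figure D2:**
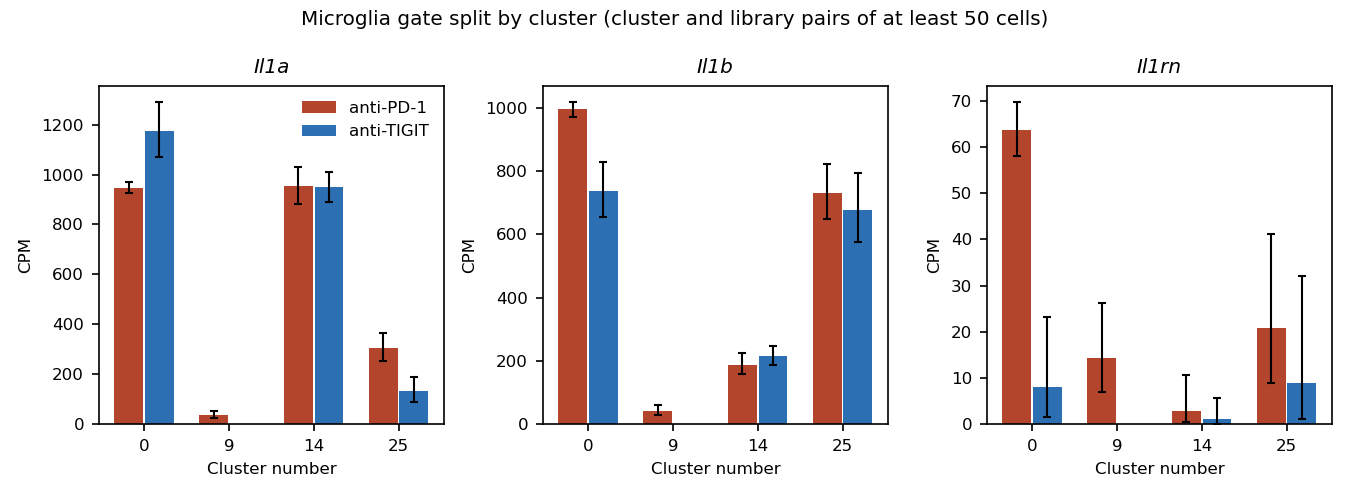
CPM of Il1a, Il1b and Il1rn in microglia-gated cells of each cluster, anti-PD-1 in red and anti-TIGIT in blue, with 95% Poisson intervals, for cluster and library pairs of at least 50 cells (cluster 9 has anti-PD-1 cells only). Il1b is several times higher in cluster 0 than in cluster 14 in both libraries, while Il1a stands near 950 CPM in cluster 14 of both.

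A further cluster, number 9, held 21.1% of the anti-PD-1 microglia gate at a median of 1966 UMIs per gated cell, with Il1a at only 35.8 CPM and Il1b at 41.5 CPM. Its leading genes, such as Cxcl13, Apoc1 and Trem2, include none of the gate markers. Without it the log2 ratio of Il1b in microglia was 1.17, that of Il1a 0.06 and that of Il1rn 3.97.

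Il1a, the ligand that is active without caspase-1, was a microglial transcript in these data. Microglia held 849 CPM (830 to 868) and 849.9 CPM (807 to 895), which do not differ beyond counting error, and 92.3% and 84.1% of the Il1a UMIs of gated cells. Within clusters the levels were not equal: 948 (926 to 970) and 1176 CPM (1069 to 1291) in cluster 0, and 305 (252 to 366) and 133 CPM (89.7 to 190) in cluster 25. The log2 ratio was -0.23 (-0.37 to -0.09) among Xist-positive microglia and 0.17 (0.08 to 0.25) when scaled by the median gene. The next compared gates were border macrophages, at 70.9 and 54.1 CPM, and cDC2, at 58.5 and 40.1 CPM. Border macrophages of cluster 25 held 139 (100 to 189) and 15.5 CPM (7.45 to 28.6) of Il1a. Those of cluster 11 differed the other way, at 45.4 (30.2 to 65.6) and 71.3 CPM (59.3 to 85.0). In cDC1 Il1a was higher in the anti-PD-1 library, at 53.2 against 12.7 CPM (log2 ratio 2.07, 1.34 to 2.91), a level that is 6.26% of that of microglia. Within cluster 28, which held most cDC1 cells of both libraries, the ratio was 0.44 (-1.01 to 2.20).
Il1b was found more often in microglia with an Il1a UMI than in those without. At 1000 UMIs per cell, 35.99% of Il1a-positive microglia of the anti-PD-1 library had an Il1b UMI (31.8% to 40.3%), against 22.6% of the others (19.7% to 25.7%). In the anti-TIGIT library the shares were 19.3% (13.7% to 26.0%) and 12.9% (8.90% to 17.9%), whose intervals overlap. These shares pool the clusters of the gate, among them the anti-PD-1 cells of cluster 9, in which both genes were low. Co-detection within a cluster was not computed.

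In cDC1 and border macrophages Il1b lay lower in anti-PD-1 cells. cDC1 held 485 CPM (463 to 508) and 1142 CPM (1084 to 1203), a log2 ratio of -1.24 (-1.34 to -1.14). Among the 107 and 24 Xist-positive cDC1 cells the ratio turned to 0.43, with clusters in place of gates it was -0.35, within cluster 28 alone -1.55, and without cells that held 2 or more cDC2 markers it was -0.86. cDC1 had 3 of 8 measured members past 2-fold, Il1a and Il1rn higher and Il1b lower, against 1.15% and 1.17% of its genes. Border macrophages held 208 and 303 CPM (-0.55, -0.78 to -0.32), and the ratio was 0.22 with clusters in place of gates. That cluster label took in cluster 25, where 38.6% of the gated cells were border macrophages. Border macrophages of the gate held 162 (132 to 197) and 271 CPM (247 to 297) in cluster 11. In cluster 25 they held 279 (222 to 346) and 389 CPM (342 to 440). No member was past 2-fold in the border macrophage gate as a whole, where 0.997% of genes were higher and 1.14% lower. The same held for the 10 measured in cDC2 (0.92% and 0.865%). Within clusters of border macrophages, Il1a differed in opposite directions, as given above.

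Il1rn, which encodes the receptor antagonist, showed the widest gap of any member in microglia. It stood at 54.2 CPM (49.6 to 59.1) in the anti-PD-1 library and at 3.53 CPM (1.30 to 7.69, from 6 UMIs) in the anti-TIGIT library, a log2 ratio of 3.94 (2.81 to 5.39). The UMIs lay in 164 of 1350 anti-PD-1 microglia, and no cell held more than 5.34% of them. Within cluster 0 the levels were 63.8 and 7.93 CPM, the latter from 3 UMIs. At 1000 UMIs per cell, with all clusters of the gate pooled, Il1rn was found in 6.67% of Il1b-positive anti-PD-1 microglia (4.32% to 9.76%). Among Il1b-negative ones the share was 1.40% (0.747% to 2.38%).
The monocyte gate was higher still, at 268 and 121 CPM, with 34.3% of the anti-PD-1 UMIs in 1 cell. cDC2 held 23.0 and 16.0 CPM, and in cDC1, at 26.1 and 7.12 CPM, 1 cell held 42.0% of the anti-PD-1 UMIs. Among cDC1 cells with Y-linked UMIs alone the log2 ratio of Il1rn was -0.61 (-2.15 to 1.02), against 1.87 in the whole gate.

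**Figure D3:**
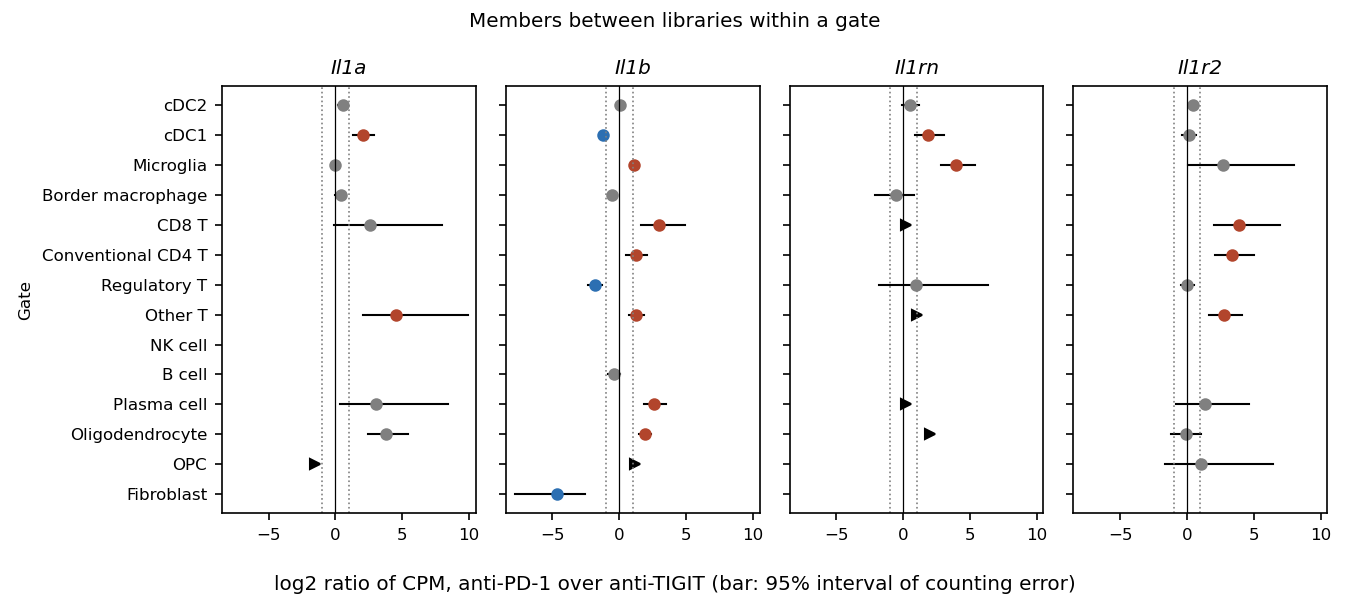
log2 ratio of CPM, anti-PD-1 over anti-TIGIT, of Il1a, Il1b, Il1rn and Il1r2 in each compared gate with at least 10 UMIs. Red and blue points are at least 2-fold higher and lower on the scale of log2(CPM + 5), grey points within, bars are 95% intervals of counting error, and a triangle marks the lower limit where the anti-TIGIT library held 0 UMIs; dotted lines are at 2-fold. Il1rn in microglia stands at 3.94, and Il1b ratios lie on both sides of 0.

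Nlrp3, the inflammasome sensor, followed the myeloid gates. It stood at 196 and 238 CPM in microglia, 125 and 202 CPM in border macrophages, 156 and 158 CPM in cDC2 and 39.1 and 60.2 CPM in cDC1. Myeloid gates held 96.1% and 99.1% of its gated UMIs. The log2 ratio was -0.69 (-0.98 to -0.40) in border macrophages and -0.28 (-0.43 to -0.12) in microglia, the latter close to the -0.17 of the gate's median gene. Il1b-positive cells more often had a Nlrp3 UMI at equal depth: 20.6% against 12.3% of anti-PD-1 microglia, and 17.4% against 7.89% of anti-PD-1 cDC2, the latter with overlapping intervals. These shares also pool clusters, and Nlrp3 stood at 10.0 CPM in cluster 9 and 208 CPM in cluster 0 of anti-PD-1 microglia.

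Casp1, the protease that cuts both cytokines, was spread over most lymphoid and myeloid gates. It stood at 68.1 and 86.5 CPM in microglia, 69.9 and 85.5 CPM in border macrophages and 66.2 and 70.5 CPM in cDC2. The CD4, CD8, regulatory and ungrouped T cell gates ranged from 48.4 to 70.2 CPM in the anti-PD-1 library and from 38.4 to 86.2 CPM in the anti-TIGIT library. B cells held 84.8 and 53.9 CPM, NK cells 53.8 and 37.2 CPM and cDC1 37.0 and 45.1 CPM. Plasma cells were lower, at 14.5 and 12.3 CPM, while 67 anti-PD-1 ILC2 (group 2 innate lymphoid cells) of cluster 31 held 114 CPM (77.5 to 162). Oligodendrocytes, with 4.67 and 0.36 CPM, stood at 6.85% and 0.415% of the microglial level, and fibroblasts at 0.42 and 2.42 CPM.

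Il18 was highest in other cells than Il1b. Oligodendrocytes, the myelin-forming cells, held 106 CPM (102 to 111) and 123 CPM (117 to 129), and accounted for 56.5% and 76.9% of the Il18 UMIs of gated cells. As for Il1b, these shares also depend on the number of cells recovered, 2543 and 1976 oligodendrocytes against 686 and 111 OPC. OPC held 97.5 CPM in both libraries and fibroblasts 87.0 and 76.3 CPM. Microglia held 52.2 and 45.9 CPM, border macrophages 52.4 and 47.2 CPM and cDC2 12.5 and 24.1 CPM. An Il18 UMI was seen in 44.3% and 51.8% of oligodendrocytes, and in 9.45% and 10.9% at 1000 UMIs per cell.
The log2 ratio in oligodendrocytes was -0.21 (-0.31 to -0.12), it was -0.06 (-0.24 to 0.11) among Xist-positive cells alone, and it lay between -0.25 and -0.04 in every oligodendrocyte cluster with at least 50 cells in each library. The interval held 0 in cluster 1 (-0.49 to 0.44) and in cluster 3 (-0.30 to 0.09). It also held 0 when cells were thinned before summing (-0.20, -0.47 to 0.07). Casp1 was seldom seen in oligodendrocytes with or without Il18. At 1000 UMIs per cell, 1 of 225 and 1 of 210 Il18-positive oligodendrocytes had a Casp1 UMI. Among those without an Il18 UMI the counts were 20 of 2156 and 1 of 1718, with overlapping intervals. Casp1 was near the limit of detection at this depth.

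**Figure D4:**
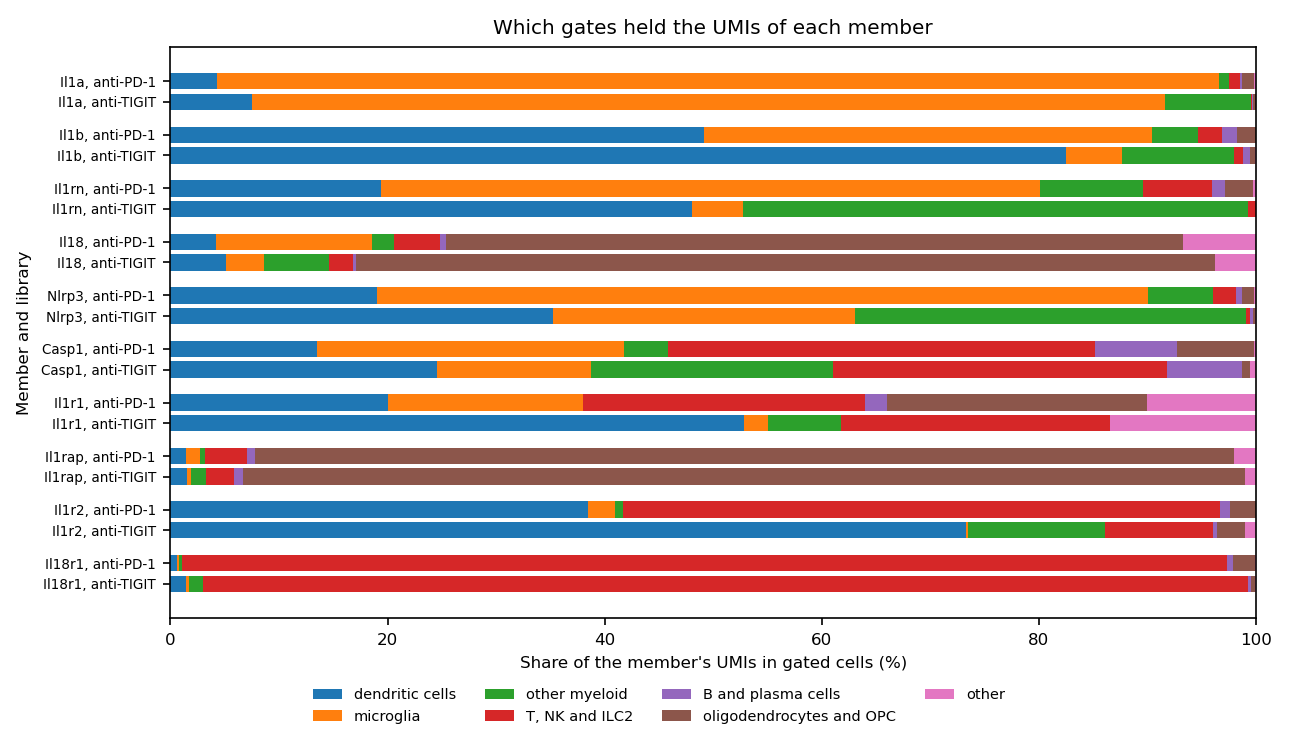
Share of each member's UMIs in gated cells (horizontal axis, percent) by group of gates, 1 bar per member and library. Dendritic cells and microglia take most of Il1b, microglia most of Il1a, oligodendrocytes and OPC most of Il18 and Il1rap, and T, NK and ILC2 gates most of Il18r1.

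On the receiving side, Il1r1 had the fewest UMIs of the members, with 191 and 113 UMIs in all retained cells. Among gates of at least 50 cells the highest levels were 12.5 (8.14 to 18.3) and 17.1 CPM (12.5 to 22.8) in cDC2, 4.16 and 14.5 CPM in fibroblasts and 8.61 and 0 CPM in OPC. The 0 in OPC rests on 111 cells, where 3 counts, the floor used here for a count of 0, would be 5.97 CPM. Oligodendrocytes held 2 and 0 UMIs, or 0.11 CPM and a floor of 0.216 CPM. Gamma-delta T cells, 29 and 19 cells that were singled out after their values were seen, stood at 214 (134 to 324) and 172 CPM (82.6 to 317), with 8 of the 22 and 5 of the 10 UMIs in 1 cell. The endothelial gate, a cell type known to carry this receptor, held only 14 and 1 cells, so its level was not described.

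Il1rap, the accessory chain, was by contrast a transcript of the oligodendrocyte lineage. Oligodendrocytes held 225 CPM (218 to 232) and 250.1 CPM (242 to 259), or 80.3% and 91.0% of its gated UMIs, and OPC 126 and 101 CPM. Every other compared gate lay below 40 CPM. In cluster 23, oligodendrocytes led by Pakap, Hecw2, Grm7 and Grm3, it stood at 494 and 611 CPM, against 188 to 225 CPM in clusters 3 and 20, and Il1rap was not among the genes used to form the clusters. In the same cluster 23 Il18 stood at 105 and 125 CPM, close to the whole gate. UMIs of both Il1r1 and Il1rap were found in 16 of 686 anti-PD-1 OPC and in 4 of 278 and 3 of 446 cDC2, while oligodendrocytes and anti-TIGIT OPC held too few Il1r1 UMIs for such a count. Il1rap also pairs with other receptors of the family, which were not members here.

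Il1r2, the decoy receptor, lay in cDC2 and regulatory T cells in both libraries. cDC2 held 185 CPM (167 to 205) and 138 CPM (124 to 153), a log2 ratio of 0.42 that turned to -0.61 with clusters in place of gates. Regulatory T cells held 122 (108 to 137) and 121 CPM (87.7 to 162), though 1 cell held 59.1% of the anti-TIGIT regulatory T cell UMIs. Within cluster 17, which held most regulatory T cells of both libraries, the levels were 113 (95.0 to 133) and 39.2 CPM (16.9 to 77.1), and with clusters in place of gates the log2 ratio was 1.34 (0.58 to 2.21). At 1000 UMIs per cell, Il1b-positive cDC2 more often had an Il1r2 UMI than the others in the anti-TIGIT library, 11.4% (8.14% to 15.3%) against 3.33% (0.916% to 8.31%), with intervals that just overlap.
Il1r2 was also past 2-fold, and higher in anti-PD-1 cells, in 3 T cell gates. Conventional CD4 T cells held 52.4 and 5.13 CPM (log2 ratio 3.35, 2.08 to 5.01), the ungrouped T cells 44.9 and 6.64 CPM (2.76, 1.67 to 4.11) and CD8 T cells 12.9 and 0.85 CPM (3.93, 2.03 to 7.00). The anti-PD-1 UMIs lay in 37, 49 and 42 cells, and 1 conventional CD4 cell held 28.1% of that gate's. Assigned by clusters, conventional CD4 T cells had a log2 ratio of 0.17 (-0.32 to 0.70). The conventional CD4 gate was made of different clusters, with 41.6% of anti-PD-1 cells in cluster 26 and 42.3% of anti-TIGIT cells in cluster 5, where neither library held an Il1r2 UMI. Cluster 5 also held 28.5% and 55.0% of the ungrouped T cells, at 14.8 and 0 CPM. Within cluster 26, conventional CD4 cells held 52.1 (37.1 to 71.2) and 14.3 CPM (4.63 to 33.3). Conventional CD4 T cells had 2 of 7 members higher, where 2.88% of genes were higher and 0.934% lower. The other of the 2 was Il1b, at 44.7 and 18.5 CPM, with 68.3% of the anti-PD-1 UMIs in 1 of 9 cells. The ungrouped T cells had 5 of 10 higher against 3.17% and 1.28%, and CD8 T cells 2 of 9 against 1.75% and 0.665%.
Group 2 innate lymphoid cells (ILC2), cells of the type 2 response, held Il1r2 in 1 library and not in the other. In the anti-PD-1 library 35 of 68 ILC2 held 192 UMIs, 704 CPM (608 to 811), with no cell above 7.81% of them. In the anti-TIGIT library 0 UMIs were counted in 38 ILC2, where 3 counts would be 30.4 CPM. This gate is under 50 cells in the second library and was singled out after its values were seen, and 37 of the anti-PD-1 cells against 10 of the anti-TIGIT cells were Xist-positive without Y-linked UMIs. Neutrophils, which are known for this receptor, held 583 CPM in the anti-TIGIT library.

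Il18r1, the ligand-binding chain for interleukin 18, was carried by lymphocytes. NK cells held 308 CPM (244 to 383) and 223 CPM (171 to 288), regulatory T cells 185 and 134 CPM, conventional CD4 T cells 139 and 165 CPM, and CD8 T cells 139.9 and 139.8 CPM. Among Xist-positive CD8 T cells alone the log2 ratio was 0.81 (0.17 to 1.53). T cell gates held 92.3% and 89.1% of its gated UMIs. The CD8 gate was made of different clusters: cluster 6, led by Xcl1, Nrgn and Pdcd1, held 62.1% of anti-PD-1 and 17.4% of anti-TIGIT CD8 cells, at 159 and 248 CPM, and cluster 4, led by Gzmk, held 114 and 96.0 CPM. Il18r1 itself was among the genes that formed these clusters. Gamma-delta T cells, again below 50, held 263 and 327 CPM.
Il18rap, the signalling partner, was found together with Il18r1 in 22.5% and 21.7% of NK cells and in 9.19% and 8.61% of CD8 T cells, at full depth. Its level was 231 and 212 CPM in NK cells and 49.5 and 75.4 CPM in CD8 T cells. In oligodendrocytes, which held most of the gated Il18 UMIs, Il18r1 stood at 2.39 and 0.22 CPM.

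Il18bp, the soluble inhibitor of interleukin 18, is not a member but belongs to the listed binding partners. Of 11 compared gates with at least 10 UMIs, 5 had it past 2-fold with the higher level in anti-PD-1 cells, and 0 the reverse. Pooled over all genes of the 14 compared gates, 2.36% were higher and 1.77% lower. Microglia held 119 CPM (112 to 126) and 18.8 CPM (12.9 to 26.6), a log2 ratio of 2.66 (2.15 to 3.21). Border macrophages held 65.8 and 30.3 CPM, cDC2 35.0 and 8.16 CPM, OPC 25.6 and 1.99 CPM and oligodendrocytes 23.7 and 1.01 CPM. Border macrophages were barely past 2-fold, at 1.005 on the scale of log2(CPM + 5), and the anti-TIGIT level of OPC came from 1 UMI. The oligodendrocyte gate was made of different clusters: cluster 1, led by genes such as Plvap, Serpina3n and C4b, held 567 of 2543 anti-PD-1 and 50 of 1976 anti-TIGIT cells, and the ratio of Il18bp within clusters was not computed. Fibroblasts (43.3 and 48.5 CPM) and cDC1 (51.7 and 41.2 CPM) had log2 ratios of -0.16 (-0.70 to 0.40) and 0.33 (-0.12 to 0.80).

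**Figure D5:**
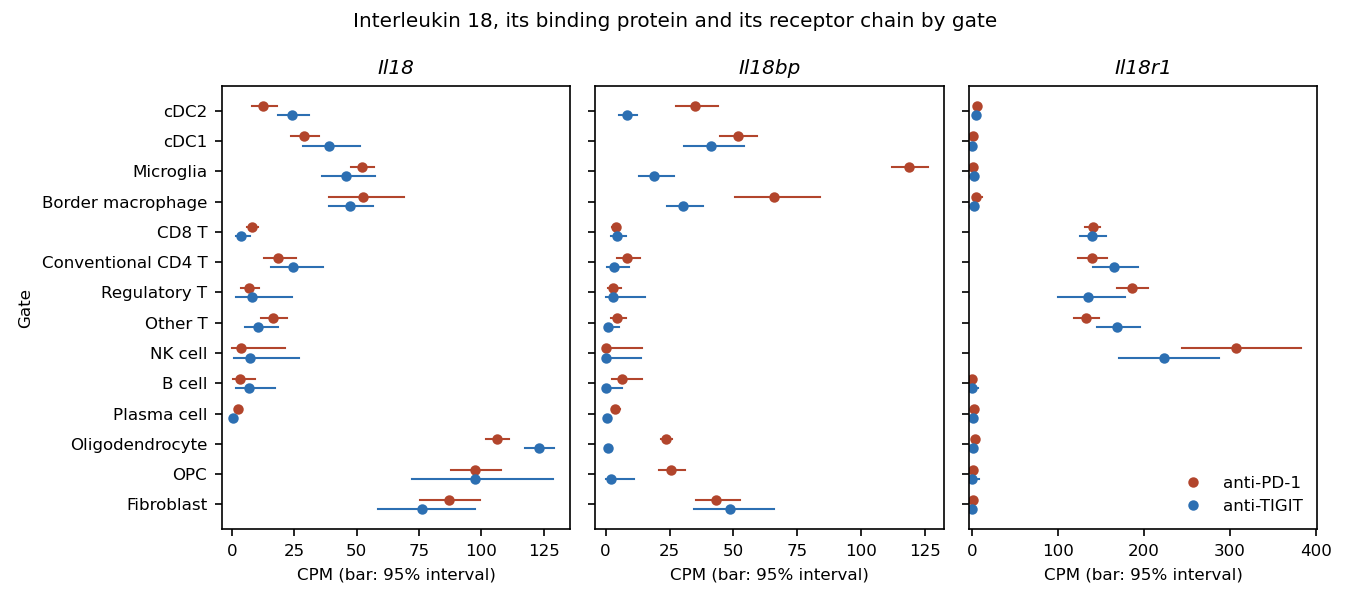
CPM of Il18, its binding protein Il18bp and the receptor chain Il18r1 in the 14 compared gates, anti-PD-1 in red and anti-TIGIT in blue, with 95% Poisson intervals of counting error. Il18 is highest in oligodendrocytes in both libraries, Il18bp in microglia of the anti-PD-1 library at 119 CPM against 18.8 CPM, and Il18r1 is near 0 outside T and NK cells.

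Genes listed as induced by interleukin 1 did not move one way in microglia. Il1r1 itself stood there at 2.89 and 1.18 CPM, from 27 and 2 UMIs, and what moved the listed genes was not tested. Of the 15 genes of this list, 12 had at least 10 UMIs, of which 2 were past 2-fold upward and 3 downward in anti-PD-1 cells. Over all genes of the gate, 1.17% were higher and 1.94% lower. The median log2 ratio of the 12 was -0.54 beside -0.17 over all genes. The higher genes were Saa3, an acute phase protein, at 64.4 and 1.18 CPM, and Vcam1, an adhesion molecule, at 106 and 25.9 CPM. Lower were Cxcl2 (38.5 and 141 CPM), which encodes a neutrophil chemokine, Nfkbiz (341 and 751 CPM), a nuclear NF-kB regulator, and Cxcl1 (1.07 and 8.24 CPM). Nfkbiz, Cxcl1, Nlrp1b and Ier3 lie outside the 6 genes named per gate and were named after their values were seen. cDC2 had 0 higher and 3 lower of 11, with Il6 at 7.19 and 24.5 CPM, where 0.92% and 0.865% of all genes were higher and lower. cDC1 had 2 and 2 of 10, against 1.15% and 1.17%. Of the 15 genes of MyD88 signalling, all with at least 10 UMIs, 0 were past 2-fold in microglia, cDC2, cDC1 or border macrophages, and of 14 measured inflammasome genes Nlrp1b alone was, in microglia, at 18.1 and 6.47 CPM.
Genes of dissociation stress differed between the libraries in the same gates. Their summed level in microglia was 22916 and 31950.3 CPM. There Hspa1a, Hspa1b and Ier3 were past 2-fold downward in anti-PD-1 cells and 0 of 13 upward, against 1.94% and 1.17% of all genes. In cDC1 it was 10273 and 13607 CPM, in cDC2 17433 and 19190.1 CPM, and in oligodendrocytes 1112 and 396 CPM, with 8 of 13 higher where 1.74% of all genes were. In OPC it was 14576 and 6911 CPM, with 6 of 13 higher against 4.36% of genes. The part of handling in the differences of Il1b, Cxcl2 and Nfkbiz, or of Casp1 and Il1r1 in OPC, was not tested.

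Over all compared gates, 101 of 140 pairs of a member and a gate had at least 10 UMIs, of which 18 were higher and 5 lower in anti-PD-1 cells by at least 2-fold. Pooled over all genes of these gates the shares were 2.36% and 1.77%. In 14 of the 18 higher pairs the level was below 10% of the member's highest gate with at least 50 cells in the library. The 4 above that limit were Il1b and Il1rn in microglia and Casp1 and Il1r1 in OPC (19.0 against 3.98 CPM for Casp1). For Il1r1 that gate is cDC2, and the smaller gamma-delta T cell gate stood far above both. For Il1r2 it is the 68 ILC2 of the anti-PD-1 library. Free RNA can give low levels in droplet data, and its part was not tested. Anti-PD-1 conventional CD4 T cells held 0 UMIs of Il1r2 in cluster 5 (at most 11.3 CPM) and 52.1 CPM (37.1 to 71.2) in cluster 26. Il1b in CD8 T cells (13.5 and 1.70 CPM), plasma cells (26.4 and 4.30 CPM), oligodendrocytes (14.3 and 3.81 CPM) and OPC (17.5 and 0 CPM) lay at 0.4% to 0.784% of the cDC2 level, and 1 cell held 71.4% of the anti-TIGIT UMIs in plasma cells and 50.9% in oligodendrocytes. Of the 257 anti-PD-1 Il1b UMIs in oligodendrocytes, 167 lay in 210 cells of cluster 2, which had 363 anti-PD-1 and 2 anti-TIGIT cells in all, while clusters 1, 3, 20 and 23 held 0.99 to 3.83 CPM. In OPC, 660 of the 686 anti-PD-1 cells lay in cluster 19 and held 18 of the 69 UMIs. Plasma cells had 1 of 9 members higher, where 1.56% of genes were higher and 0.808% lower. Oligodendrocytes had 1 of 9 higher against 1.74% and 0.175%, and OPC 3 of 7 against 4.36% and 3.64%. Of the lower pairs, Il1b in regulatory T cells (34.9 and 123 CPM) rested on 3 anti-TIGIT cells, and Il1b in fibroblasts also on 3. Regulatory T cells had 2 of 7 lower, where 5.01% of genes were higher and 2.46% lower, and fibroblasts 2 of 4 against 1.64% and 1.87%. NK cells had 0 of 2 past 2-fold against 5.44% and 5.02%, and B cells 0 of 3 against 2.89% and 5.12%.

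Across the 32 pairs of a gate and a library with at least 50 cells, the genes whose log2(CPM + 5) followed that of Il1b most closely were Spi1, which encodes the myeloid factor PU.1 (Pearson r 0.93), Fgr (0.93), its antisense neighbour Il1bos (0.92), Plbd1 (0.91) and Csf2rb (0.91). For Il18 they were Scamp1 (0.90), Vamp3 (0.89), Atp6ap1 (0.89), Sash1 (0.89) and App (0.88), and for Il18r1 Sla2 (0.98), Nkg7 (0.98), Cd27 (0.97), Cd96 (0.97) and Fasl (0.97). Il1r1 had no close match, with Kcne3 (0.67), Cd209c (0.60), Plxnd1 (0.60), Adgra2 (0.60) and Mmp12 (0.58). The points share libraries and differ in depth, so these values describe 12200 genes in these data only. Among the members, Il1b went with Nlrp3 (0.83), Il1rn (0.77) and Il1a (0.72) and not with Il18 (0.12).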

How the data were processed

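Single-cell 5' libraries of 2 samples were analysed. The authors deposited UMI counts for each gene and barcode, from Cell Ranger 8.0.0 (anti-PD-1) and 8.0.1 (anti-TIGIT) per the file headers, so version and treatment cannot be told apart. The submitters' processing notes name mm10, Seurat 5.0.3 and R 4.1.1. Barcodes numbered 13997 and 7915, with 85031565 and 40733655 UMIs. Cells needed 200 genes and no more than 10% mitochondrial UMIs, and Scrublet, with an assumed rate of 0.8% per 1000 cells, removed 576 and 155 doublets.

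A cell took the type with the most of 8 markers detected, at least 3. Unassigned were 291 and 151 tied cells, 629 and 149 with at least 4 markers of different lineages, and 2132 and 1032 with too few markers, the last at median depths of 1158.5 and 1747 UMIs. T cells were divided by Foxp3, Trdc, at least 2 type 17 genes, and Cd8a, Cd8b1 or Cd4. Counts were summed per gate and library. Intervals are exact Poisson, Clopper-Pearson or conditional binomial at 95% and leave out the spread between mice, and a floor is 3 counts. Shares and co-detection used cells thinned to 1000 UMIs where stated. Named were all members, genes of 5 lists (61 genes) past 2-fold, at most 6 per gate by size, and the 5 genes of most like pattern. The members, lists and gates were chosen with earlier results of these data known. The ratio calculation was tested on simulated data.

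Alternatives changed the doublet, gene and mitochondrial filters, the marker minimum, scaling, thinning, pseudocount and UMI minimum, used Leiden clusters (2000 variable genes, 30 components, 15 neighbours, resolution 1) or kept cells of 1 sex. Software was Python 3.11.15 with scipy 1.17.1, numpy 2.4.6, scanpy 1.11.5, pandas 2.3.3 and igraph 0.11.9.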

Additional observations from a re-analysis of the deposited data

How the results depend on the processing

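No paired analysis was possible because each group has 1 library. Log2 ratios are anti-PD-1 over anti-TIGIT, shares are in that order, and the cause of each shift was not tested. With Leiden clusters in place of gates, the Il1b ratio was 1.38 in microglia, -0.22 in cDC2, -0.35 in cDC1 and 0.22 in border macrophages, where it reversed, and that of Il1r2 in cDC2 reversed to -0.61; cDC2 then held 9.20% and 45.6% of Il1b UMIs and oligodendrocytes 52.9% and 72.7% of Il18 UMIs. A minimum of 2 markers gave Il1b -0.27 in border macrophages and cDC2 shares of 36.1% and 67.4%. A minimum of 4 gave Il1b 1.29 in microglia, cDC2 shares of 35.4% and 70.2%, and Il18 shares of 58.9% and 79.5%. Without doublet removal the anti-TIGIT cDC2 share was 67.2%. Il1b in microglia was 1.27 when scaled by the median ratio and 0.90 when thinned before summing, which left 2 pairs of a member and a gate lower.

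Among Xist-positive cells (6 gates compared) Il1b was 1.25 in microglia, 0.21 in cDC2 and, reversed, 0.43 in cDC1, Il18 in oligodendrocytes -0.065 and Il18r1 in CD8 T cells 0.81, with 3 pairs higher and 2 lower. Among cells with Y-linked UMIs (9 gates) Il1b was 1.34 in microglia, -0.10 in cDC2 and -1.88 in border macrophages, Il18 in oligodendrocytes -0.31 and Il1rn in cDC1, reversed, -0.61, with 3 pairs lower and 3 list genes lower in microglia. A pseudocount of 1 CPM gave 30 pairs higher and 7 list genes higher in microglia, one of 20 CPM gave 6 pairs higher and 2 lower, and a minimum of 50 UMIs gave 2 lower. Chosen after seeing the data, leaving out cells with 2 or more cDC2 markers gave Il1b -0.86 in cDC1. Depth limits values from few UMIs, such as Il1rn in microglia (6 anti-TIGIT UMIs) and Il1r2 in CD8 T cells (2).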
